A study of Mus musculus with 36 samples.

Results

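The genes described here encode the machinery that releases neurotransmitter from synaptic vesicles. They were the protein-coding genes with symbols of the families Vamp, Snap, Stx (syntaxins), Stxbp (syntaxin-binding proteins), Syt (synaptotagmins), Cplx (complexins), Sv2, Syn (synapsins), Rab3 and Rims, chosen by gene name alone. The rule found 67 genes of the 38924 in the count tables: 17 Syt, 15 Stx, 6 Vamp, 6 Stxbp, 5 Snap, 4 Cplx, 4 Rab3, 4 Rims, 3 Sv2 and 3 Syn genes. All 67 are called release genes below, although many syntaxins and some other members act in Golgi, endosome or autophagosome transport, and Snap91 is a clathrin adaptor that shares only its name with the Snap family.

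Polyadenylated RNA was sequenced from brainstem, hypothalamus and cortex of C57BL/6 mice of 4 genotypes. Each combination of tissue and genotype had 3 libraries, which makes 36. The genotypes were Hcrt/Orexin-ataxin-3 transgenic mice, which carry a single copy (tg/+) of a transgene in which the Hcrt promoter drives a toxic ataxin-3 fragment that kills hypocretin (orexin) neurons; the wild type of that line; Hcrt/Orexin knockout mice, in which the peptide gene is disrupted and the neurons remain; and the wild type of the knockout line. The labels give neither age nor sex, and nothing says whether replicate libraries came from different animals, so p-values measure the spread between these libraries, which may be technical.

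Vesicle fusion is driven by a SNARE complex, in which Vamp1 or Vamp2 on the vesicle pairs with a syntaxin such as Stx1a and with Snap25 on the plasma membrane. Syntaxin-binding proteins steer its assembly, synaptotagmins such as Syt1 and Syt2 trigger fusion when calcium enters, and complexins hold the complex ready and help to release it. Rims proteins tether vesicles at the active zone through Rab3, synapsins keep a reserve of vesicles, and Sv2 proteins sit in the vesicle membrane. Most of these roles are filled by paralogs, and Vamp1, Syt2 and Cplx1 are known for their use at fast synapses of the hindbrain and spinal cord.

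Library totals ran from 21915540 to 47057537 gene counts. Hcrt itself was at 2.07 to 2.46 CPM (counts scaled to library size with TMM factors) in ataxin-3 transgenic hypothalamus, against 101 to 196 CPM in its wild type, and at 0.996 to 1.14 CPM in knockout hypothalamus, against 51.4 to 81.2 CPM in its wild type. In brainstem and cortex Hcrt was at 1.29 CPM or less in every library. The dissections differed between libraries. Summed over 7 pituitary markers, 3 hypothalamus libraries (wild type of the ataxin-3 line, replicates 1 and 3, and wild type of the knockout line, replicate 3) had 14410 to 27090 CPM, against 62.6 to 206 CPM in the other 9. The ataxin-3 transgenic hypothalamus replicate 1 had 1541 CPM of 5 nasal epithelium markers, against 8.61 to 40.4 CPM in the other hypothalamus libraries. Hypothalamus replicates 1 and 3 of the knockout line's wild type had 131 and 102 CPM of 5 cortical excitatory markers, against at most 19.2 CPM in the others. In brainstem, 6 of 12 libraries carried more of 5 cerebellar markers (526 to 813 CPM, against 128 to 176 CPM). Cortex of the ataxin-3 transgenic line, replicate 1, and knockout hypothalamus, replicate 1, were low in long transcripts. These 13 libraries stood apart by these measures, and some results that rest on them are given with and without them. Brainstem replicate 2 of the ataxin-3 line's wild type was not among them. It had the fewest gene counts (21915540) and the lowest TMM factor (0.846) of all libraries.

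The promoters of 5 core genes of the SNARE complex and its calcium sensors and clamps, described below, are shown first, with that of Syn1, in which 2 of the rarer searched motifs lie. They were picked to show these genes and not by a ranking. Each window is the RefSeq sequence of GRCm38.p6 from 250 bases before to 50 bases after an annotated start of the gene, read 5′ to 3′ on the gene's strand. Syt1 and Syt2 have 2 windows each, and the one with more matches to the rarer motifs is shown, or at a tie the more upstream one. Capitals mark matches to 5 searched motifs, on either strand: the GC box GGGCGG, the EGR site GCGGGGGCG (which can overlap a GC box), the cAMP response element TGACGTCA, the estrogen-related receptor element TCAAGGTCA and TTCAGCACC, the left part of RE1, the element bound by the neuronal gene repressor REST.
Vamp1, chr6:125215331-125215630, + strand: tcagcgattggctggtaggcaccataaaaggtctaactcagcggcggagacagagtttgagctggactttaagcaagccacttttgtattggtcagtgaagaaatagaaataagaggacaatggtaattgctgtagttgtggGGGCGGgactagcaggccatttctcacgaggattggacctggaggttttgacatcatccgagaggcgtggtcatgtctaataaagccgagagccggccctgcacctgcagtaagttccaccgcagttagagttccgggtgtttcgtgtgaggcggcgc
Syt2, chr1:134646362-134646661, + strand: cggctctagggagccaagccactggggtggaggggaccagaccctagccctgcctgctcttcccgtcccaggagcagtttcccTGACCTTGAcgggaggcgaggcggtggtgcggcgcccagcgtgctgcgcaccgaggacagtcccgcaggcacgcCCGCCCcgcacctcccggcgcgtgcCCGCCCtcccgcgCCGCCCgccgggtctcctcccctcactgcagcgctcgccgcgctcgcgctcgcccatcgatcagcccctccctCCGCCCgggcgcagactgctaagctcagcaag
Cplx1, chr5:108549978-108550277, - strand: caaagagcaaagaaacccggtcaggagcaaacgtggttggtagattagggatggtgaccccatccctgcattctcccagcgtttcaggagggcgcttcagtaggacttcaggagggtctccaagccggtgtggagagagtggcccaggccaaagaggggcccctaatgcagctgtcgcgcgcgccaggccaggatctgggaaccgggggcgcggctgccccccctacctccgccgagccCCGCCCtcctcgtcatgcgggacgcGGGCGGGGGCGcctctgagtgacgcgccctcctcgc
Syt1, chr10:109010926-109011225, - strand: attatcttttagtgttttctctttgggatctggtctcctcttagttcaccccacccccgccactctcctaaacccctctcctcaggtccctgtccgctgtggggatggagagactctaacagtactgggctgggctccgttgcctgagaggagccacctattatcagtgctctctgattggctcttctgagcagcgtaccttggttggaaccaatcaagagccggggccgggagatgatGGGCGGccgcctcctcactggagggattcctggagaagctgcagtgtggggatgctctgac
Stx1a, chr5:135023232-135023531, + strand: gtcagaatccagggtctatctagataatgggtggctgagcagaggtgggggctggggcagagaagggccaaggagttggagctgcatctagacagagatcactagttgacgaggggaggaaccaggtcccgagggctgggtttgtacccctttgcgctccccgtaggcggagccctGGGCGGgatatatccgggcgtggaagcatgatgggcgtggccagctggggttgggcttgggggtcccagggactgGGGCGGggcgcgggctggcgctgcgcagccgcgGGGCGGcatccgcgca
Syn1, chrX:20920869-20921168, - strand: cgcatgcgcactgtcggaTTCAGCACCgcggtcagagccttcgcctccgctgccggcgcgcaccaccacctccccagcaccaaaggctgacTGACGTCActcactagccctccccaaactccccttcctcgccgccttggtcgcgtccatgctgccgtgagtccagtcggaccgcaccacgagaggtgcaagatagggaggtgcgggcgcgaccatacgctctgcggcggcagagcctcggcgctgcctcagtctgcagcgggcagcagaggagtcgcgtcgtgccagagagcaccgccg

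Vamp1, Syt2 and Cplx1 were higher in brainstem than in the other tissues, and Syt1 and Stx1a were highest in cortex. The Syt2 window held 4 GC boxes and the estrogen-related receptor element, which occurs in 0.423% of all 32851 RefSeq windows of the same length. The Cplx1 window held 2 GC boxes and an EGR site, a motif found in 2.91% of all windows and in those of 5 release genes (Cplx1, Stxbp5, Syn2, Syt16 and Vamp4). The Stx1a window held 3 GC boxes, and those of Vamp1 and Syt1 held 1 each. The Syn1 window held the RE1 part, present in 0.371% of all windows, and the cAMP response element, present in 1.79%. A window was at hand for 52 of the 67 release genes (68 windows), and 44 of these 68 windows held a GC box, against 35.7% of all windows. A match is a description of the letters and says nothing of binding.

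**Figure D1:**
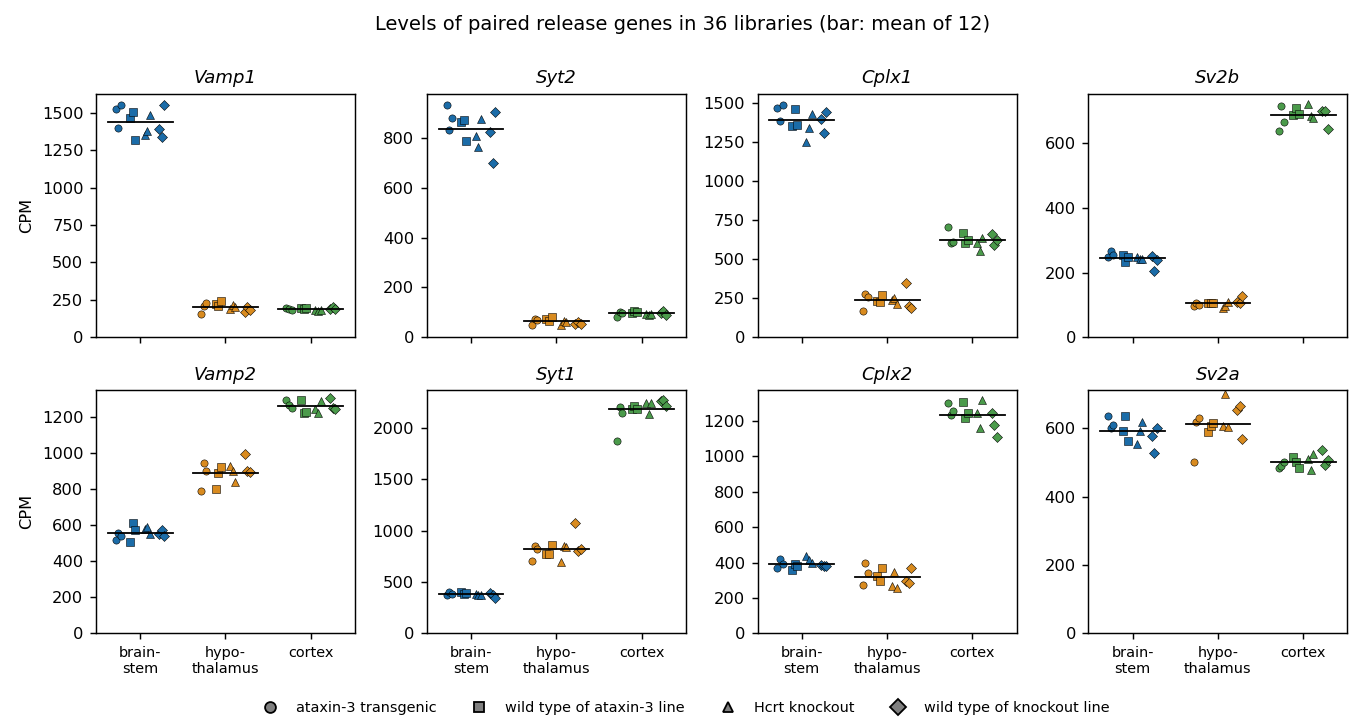
Levels of 4 pairs of paralogs (Vamp1 and Vamp2, Syt2 and Syt1, Cplx1 and Cplx2, Sv2b and Sv2a) in each of the 36 libraries, in CPM on a linear axis from 0, with tissues on the horizontal axis, a symbol shape for each genotype and a bar at the mean of 12 libraries. Vamp1 and Syt2 stood far higher in brainstem (1319 to 1554 CPM and 700.3 to 930 CPM) than in the other tissues, Sv2b and Syt1 stood highest in cortex, and the 4 genotypes lay together within each tissue.

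Nearly all release genes differed between tissues, as did most genes. Of the 67, 64 passed the filter on low counts in the fit of all 36 libraries, and Cplx4, Stx19 and Syt8 did not (at most 10, 5 and 4 counts in any library). In brainstem over cortex, 29 were higher (45.3% of those tested) and 32 lower (50%) at an adjusted p under 0.05, where 43.1% and 41.6% of all 17744 tested genes, 84.7% in all, were called in those directions. In hypothalamus over cortex, 22 were higher and 33 lower (34.4% and 51.6%), against 42.7% and 40.3% of all genes (83% in all). In brainstem over hypothalamus, 31 were higher and 29 lower (48.4% and 45.3%), against 36% and 40.8% of all genes (76.8% in all). Since most genes passed in these comparisons, calls of at least 2-fold are more telling, a limit chosen after this was seen. In brainstem over cortex 9 release genes were at least 2-fold higher and 14 at least 2-fold lower (14.1% and 21.9%, against 13.4% and 14.8% of all genes). In hypothalamus over cortex the counts were 4 and 13 (6.25% and 20.3%, against 12.5% and 12.7%), and in brainstem over hypothalamus 7 and 9 (10.9% and 14.1%, against 7.92% and 9.52%). The median absolute log2 fold change of the release genes was 0.73 in brainstem over cortex, 0.51 in hypothalamus over cortex and 0.53 in brainstem over hypothalamus, beside 0.57, 0.51 and 0.38 over all tested genes.

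The libraries of 2 tissues often did not overlap at all. All 12 brainstem libraries lay apart from all 12 cortex libraries for 46 release genes (71.9%, against 52% of all tested genes), hypothalamus and cortex lay apart for 32 (50%, against 44.9%), and brainstem and hypothalamus for 37 (57.8%, against 34.3%). For 14 release genes (21.9%, against 11.8%) all 3 tissues lay apart from each other. Of these, 9 were highest in cortex (Rims1, Stx1a, Stx3, Sv2b, Syt1, Syt16, Syt17, Syt7 and Vamp2), 3 in brainstem (Cplx1, Snap25 and Vamp3) and 2 in hypothalamus (Rims3 and Syt9). Together the release genes took 1.55% to 1.84% of gene counts in brainstem, 1.25% to 1.42% in hypothalamus and 1.79% to 1.89% in cortex.

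Summed levels of cell type markers differed between the tissues as well. The summed level of 7 neuron markers was 4876 to 5863 CPM in brainstem, 2707 to 3157 CPM in hypothalamus and 3150 to 3488 CPM in cortex. Oligodendrocyte markers (7 genes) summed to 17180 to 21180 CPM in brainstem, 4321 to 5917 CPM in hypothalamus and 3598 to 4787 CPM in cortex, and 5 cortical excitatory markers to 142 to 203 CPM, 7.91 to 131 CPM and 1600 to 1779 CPM in the same order. No neuron or oligodendrocyte marker was at 0 in any library. The part of these differences in the values that follow was not tested, and in bulk tissue fewer cells of a type and less RNA per cell cannot be told apart.

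Among the vesicle SNAREs, Vamp1 was higher in brainstem than in the other tissues, and Vamp2 was highest in cortex. Vamp1 (synaptobrevin-1, chromosome 6, exon length 10167 bases) had 1319 to 1554 CPM in brainstem (median 1429), 159 to 245 CPM in hypothalamus (median 206) and 178 to 202 CPM in cortex (median 191). No brainstem library overlapped one of the other tissues, while hypothalamus and cortex overlapped throughout. Vamp1 was 7.58-fold higher in brainstem than in cortex (log2 fold change 2.92, SE 0.05, adjusted p = 4.12e-30) and 7.12-fold higher than in hypothalamus, and did not pass in hypothalamus over cortex (0.09, SE 0.04, adjusted p = 0.067). It passed there when any set of the libraries that stood apart was left out (0.10 to 0.16 on the log2 scale, adjusted p = 4.97e-05 without all of them).

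Vamp2 (synaptobrevin-2), the vesicle SNARE of most forebrain synapses, went the other way. It had 505 to 611 CPM in brainstem (median 553), 790 to 997 CPM in hypothalamus (median 901) and 1223 to 1309 CPM in cortex (median 1250), with no overlap between tissues. Its log2 fold change was -1.18 (SE 0.03) in brainstem over cortex and -0.50 (SE 0.03) in hypothalamus over cortex. Per kilobase of exon, Vamp1 made up 46.2% to 52.5% of Vamp1 plus Vamp2 in brainstem, 6% to 9.31% in hypothalamus and 5% to 5.72% in cortex.

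The other Vamp genes, which serve endosomal, Golgi and secretory-granule transport, were low and mostly highest in brainstem. Vamp3 (cellubrevin) had 54.4 to 61.8 CPM in brainstem, 35.5 to 45.3 CPM in hypothalamus and 30.5 to 34.7 CPM in cortex, and was 1.77-fold higher in brainstem than in cortex. Vamp8 (endobrevin) was 2.49-fold and Vamp5 (myobrevin) 2.07-fold higher in brainstem than in cortex, at median levels of 13.1 and 2.74 CPM in brainstem. Vamp4, a SNARE of the trans-Golgi network, was instead highest in hypothalamus, with a median of 133 CPM against 101 CPM in brainstem and 93.2 CPM in cortex.

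Snap25, the plasma membrane SNARE cleaved by several botulinum toxins, was the most abundant release gene by counts. It had 3757 to 4183 CPM in brainstem (median 4074), 1103 to 1460 CPM in hypothalamus (median 1335) and 2937 to 3420 CPM in cortex (median 3044), and the 3 tissues did not overlap. Snap25 was 3.03-fold higher in brainstem than in hypothalamus (log2 fold change 1.60, SE 0.04, adjusted p = 2.96e-26), 2.31-fold lower in hypothalamus than in cortex and 1.31-fold higher in brainstem than in cortex. Of its relatives, Snap23, which serves non-neuronal secretion, was highest in cortex (median 22.7 CPM), and Snap47 was higher in brainstem and hypothalamus than in cortex (log2 fold changes 0.37 and 0.47). Snap29 differed by at most 0.15 on the log2 scale.

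Stx1a, a plasma membrane syntaxin of synapses, was highest in cortex. Stx1a (chromosome 5) had 9.37 to 13 CPM in brainstem (median 10.7), 37.5 to 46 CPM in hypothalamus (median 42.6) and 275 to 331 CPM in cortex (median 293). It was 27.3-fold lower in brainstem than in cortex (log2 fold change -4.77, SE 0.05, adjusted p = 3.49e-34) and 6.94-fold lower in hypothalamus than in cortex. The 3 tissues did not overlap, and no other release gene had a smaller adjusted p in brainstem over cortex.

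Among the other syntaxins, Stx3, a plasma membrane syntaxin of retinal ribbon synapses, was lowest in brainstem with 15.1 to 20.7 CPM, against 24.9 to 35 CPM in hypothalamus and 42.5 to 48 CPM in cortex. Stx2, a plasma membrane syntaxin, and the Golgi syntaxins Stx5a and Stx6 were also lower in brainstem than in cortex (log2 fold changes -0.98, -0.82 and -0.60). The endosomal Stx8 and the endoplasmic reticulum syntaxin Stx18 were higher in brainstem than in cortex (0.57 each). Stx7, Stx12, Stx16 and Stx17, which serve endosomes, the trans-Golgi network and autophagosomes, differed by 0.41 or less on the log2 scale in all 3 comparisons. Stx11, known from cytotoxic lymphocytes, passed with a log2 fold change of 1.30 in brainstem over cortex but reached only 0.485 CPM.

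**Figure D2:**
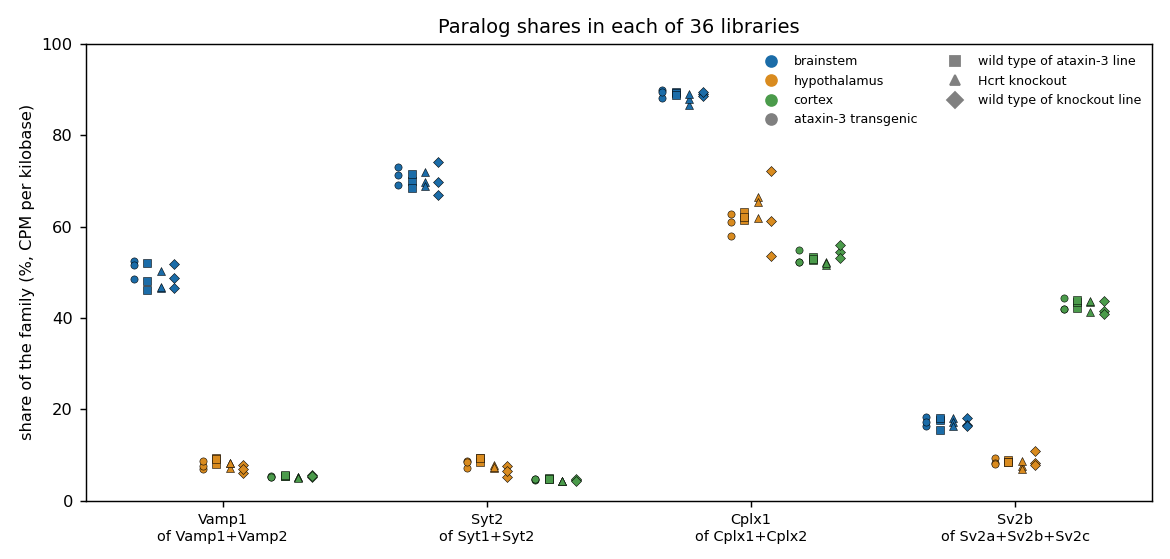
Share of 1 paralog in its family, in percent of summed CPM per kilobase of exon, for each of the 36 libraries, with tissues in colour and genotypes by symbol. Brainstem stood apart in the Vamp1 and Syt2 shares and cortex in the Sv2b share, with no overlap, while the Cplx1 share of hypothalamus (53.6% to 72.3%) overlapped that of cortex (51.6% to 55.9%).

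The syntaxin-binding proteins did not move one way. Stxbp2, known for granule release in immune cells, was 4.43-fold lower in brainstem and 3.25-fold lower in hypothalamus than in cortex, with 49 to 54.8 CPM in cortex. Stxbp3, a partner of Stx4 in glucose transporter traffic, was 2.13-fold higher in brainstem than in cortex. Stxbp5 (tomosyn), which inhibits SNARE assembly, was lower in brainstem and in hypothalamus than in cortex (log2 fold changes -0.73 and -0.50).

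The fast calcium sensors Syt1 and Syt2 differed between tissues in opposite directions. Syt1, the fast sensor of most forebrain synapses, had 344 to 407 CPM in brainstem (median 379.7), 692 to 1069 CPM in hypothalamus (median 821) and 1875 to 2268 CPM in cortex (median 2206). It was 5.71-fold lower in brainstem than in cortex (log2 fold change -2.51, SE 0.05, adjusted p = 5.35e-29) and 2.66-fold lower in hypothalamus than in cortex. Syt2, the fast sensor of many hindbrain synapses such as the calyx of Held, had 700.3 to 930 CPM in brainstem (median 848), 49.5 to 81.2 CPM in hypothalamus (median 63.7) and 80.2 to 105 CPM in cortex (median 98). It was 13.3-fold higher in brainstem than in hypothalamus (log2 fold change 3.73, SE 0.06, adjusted p = 5.96e-29) and 8.71-fold higher than in cortex. Per kilobase, Syt2 made up 67% to 74.2% of Syt1 plus Syt2 in brainstem, 5.22% to 9.35% in hypothalamus and 4.27% to 4.89% in cortex.

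Syt9, another fast sensor, was highest in hypothalamus. It had 22.8 to 32.6 CPM in brainstem (median 27.2), 44.6 to 53.5 CPM in hypothalamus (median 49.8) and 7.61 to 11.7 CPM in cortex (median 8.97), with no overlap. Its log2 fold change was 2.46 (SE 0.07) in hypothalamus over cortex and 1.59 (SE 0.06) in brainstem over cortex. Syt10, known as a sensor for IGF-1 secretion in the olfactory bulb, was 3.77-fold higher in hypothalamus than in cortex, at medians of 16.4 and 4.24 CPM, and did not pass in brainstem over cortex (-0.08, SE 0.17, and 0.0026 to 0.033 without either of 2 cortex libraries). Syt6 was highest in hypothalamus too, with a log2 fold change of 0.86 (SE 0.09) over cortex.

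Syt7, a slow, high-affinity sensor of asynchronous release, was highest in cortex. It had 186 to 212 CPM in brainstem (median 201), 78 to 143 CPM in hypothalamus (median 111) and 379 to 458 CPM in cortex (median 444), and was 3.85-fold lower in hypothalamus than in cortex. Syt3, another high-affinity sensor, was highest in brainstem, where 79.4 to 105 CPM stood against 35.1 to 49.1 CPM in hypothalamus and 44.9 to 56.1 CPM in cortex. Syt5 was low in brainstem alone, with 17.6 to 22.6 CPM against 140.2 to 186 CPM in hypothalamus and 130.2 to 163 CPM in cortex. Its fold was 7.75 lower in brainstem than in hypothalamus, and hypothalamus and cortex overlapped.

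Among synaptotagmins with no known role as calcium triggers, Syt16 and Syt17 were 7.26-fold and 4.50-fold lower in brainstem than in cortex. Syt16 had 11.7 to 15.3 CPM in brainstem, 37.6 to 48.2 CPM in hypothalamus and 92 to 107 CPM in cortex. Syt11 was abundant in all tissues, with medians of 1070.0 CPM in brainstem, 905 CPM in hypothalamus and 795 CPM in cortex, and differed by at most 0.41 on the log2 scale. Syt4, found on dense-core vesicles, was 1.39-fold higher in hypothalamus than in cortex. Syt12, Syt13, Syt14 and Syt15 differed by 0.94 or less on the log2 scale.

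All 3 tested complexins differed between the tissues. Cplx1 had 1249 to 1487 CPM in brainstem (median 1388), 169 to 345 CPM in hypothalamus (median 233) and 551 to 703 CPM in cortex (median 616). It was 5.83-fold higher in brainstem than in hypothalamus (log2 fold change 2.54, SE 0.08, adjusted p = 8.87e-22) and 2.23-fold higher than in cortex. Cplx2, its close homolog, had 355 to 435 CPM in brainstem (median 388), 256 to 398 CPM in hypothalamus (median 311) and 1109 to 1321 CPM in cortex (median 1246). It was 3.15-fold lower in brainstem and 3.88-fold lower in hypothalamus than in cortex. Per kilobase, Cplx1 made up 86.6% to 90% of Cplx1 plus Cplx2 in brainstem, 53.6% to 72.3% in hypothalamus and 51.6% to 55.9% in cortex. On this scale it was the larger part in every library, which rests on the annotated exon lengths (2189 bases for Cplx1, 4928 for Cplx2). In CPM, Cplx2 was above Cplx1 in every cortex library.

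Cplx3, a complexin of retinal ribbon synapses that also marks a deep layer of cortical neurons, was by far highest in cortex. It had 0.116 to 0.451 CPM in brainstem, 0.432 to 2.49 CPM in hypothalamus and 15.7 to 21.7 CPM in cortex. Its log2 fold change of -6.04 (SE 0.18) in brainstem over cortex was the furthest from 0 among the 64 tested, at only a few counts per brainstem library. In hypothalamus its highest values, 2.49 and 2.38 CPM, were in replicates 1 and 3 of the knockout line's wild type, the libraries with cortical markers, and the part of these in the result was not tested. Without all libraries that stood apart, the log2 fold change in brainstem over hypothalamus was -2.89, against -2.25 with all. That fit also left out the 6 brainstem libraries with cerebellar markers, so it does not show the part of the cortical markers alone. Cplx3 had 0.312 to 0.451 CPM in these 6, against 0.116 to 0.431 CPM in the other 6 brainstem libraries.

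**Figure D3:**
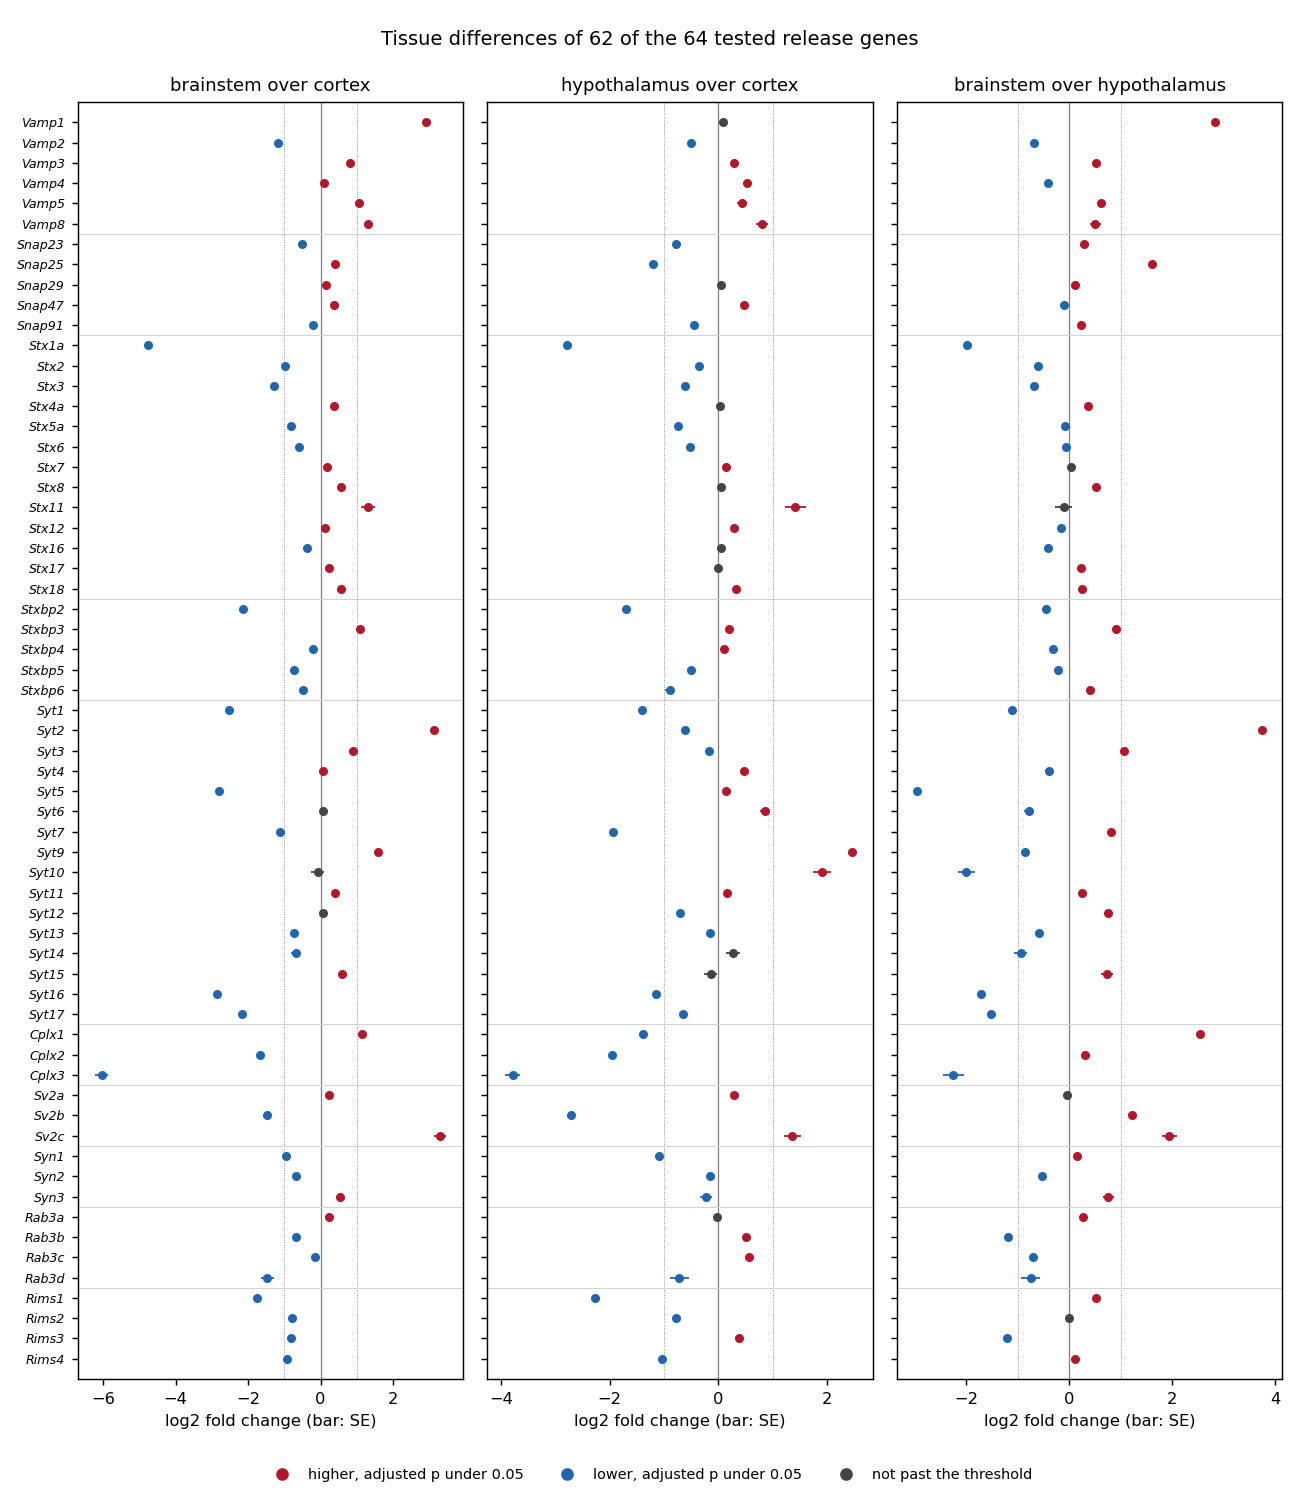
Log2 fold change of 62 of the 64 tested release genes in the 3 tissue comparisons, with bars for the standard error, grouped by family from Vamp at the top to Rims at the bottom. Dotted lines mark 2-fold, and the values run from -6.04 (Cplx3, brainstem over cortex) to 3.73 (Syt2, brainstem over hypothalamus).

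Of the vesicle membrane proteins, Sv2a, which binds the drug levetiracetam, was the even one. It had 527 to 636 CPM in brainstem (median 596), 502 to 700 CPM in hypothalamus (median 611) and 478 to 537 CPM in cortex (median 501), and did not pass in brainstem over hypothalamus (-0.05, SE 0.04). Sv2b had 206 to 267 CPM in brainstem (median 248), 90.2 to 127 CPM in hypothalamus (median 105) and 638 to 720 CPM in cortex (median 690), and was 6.56-fold lower in hypothalamus than in cortex (log2 fold change -2.71, SE 0.04, adjusted p = 1.03e-31). Sv2c, known from the basal ganglia, had 103 to 148 CPM in brainstem (median 130.1), 10 to 42.4 CPM in hypothalamus (median 35.1) and 5.32 to 17.3 CPM in cortex (median 13.8). Sv2c was 9.82-fold higher in brainstem than in cortex. Per kilobase, Sv2a made up 75.1% of the family in brainstem, 89% in hypothalamus and 56.4% in cortex (medians), and Sv2b 17.2%, 8.44% and 42.9%.

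The synapsins, which hold the reserve pool of vesicles, were mostly higher in cortex. Syn1 had 337 to 501 CPM in brainstem (median 383), 297 to 396 CPM in hypothalamus (median 343) and 721 to 804 CPM in cortex (median 745), with log2 fold changes of -0.95 and -1.10 (SE 0.04 each) in brainstem and hypothalamus over cortex. Syn2 had 312 to 335 CPM in brainstem (median 327), 409 to 502 CPM in hypothalamus (median 471) and 495 to 544 CPM in cortex (median 519.6), a log2 fold change of -0.68 (SE 0.03) in brainstem over cortex. Syn3, the least abundant, was 1.44-fold higher in brainstem than in cortex. Exons of Syn1, Syn2 and Syn3 overlap those of Araf, Timp4 and Timp3 on the opposite strand.

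At the active zone, Rims1, the main scaffold that docks vesicles and holds calcium channels, had 104 to 125 CPM in brainstem (median 112), 63.1 to 87.2 CPM in hypothalamus (median 79.6) and 319.9 to 412 CPM in cortex (median 385). It was 3.35-fold lower in brainstem and 4.81-fold lower in hypothalamus than in cortex. Rims2 was 1.72-fold lower in each of brainstem and hypothalamus than in cortex. Rims4, a short form of the family, was 1.90-fold lower in brainstem and 2.05-fold lower in hypothalamus than in cortex. Its call in brainstem over hypothalamus (0.11) was kept in 31 of 47 alternative and leave-one-out fits. The value turned sign without all libraries that stood apart (-0.0056). Rims3, another short form, was highest in hypothalamus, with 174 to 201 CPM in brainstem, 379 to 481 CPM in hypothalamus and 299 to 355 CPM in cortex.

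Rab3a, the vesicle GTPase bound by Rims, was among the most even release genes. It had 487 to 553 CPM in brainstem (median 541), 379.6 to 519 CPM in hypothalamus (median 451) and 419 to 541 CPM in cortex (median 443), with log2 fold changes of 0.24 (SE 0.04) in brainstem over cortex and -0.02 (SE 0.04) in hypothalamus over cortex, where it did not pass. Rab3b and Rab3c were highest in hypothalamus, with log2 fold changes of 0.51 and 0.56 over cortex. Rab3d, a GTPase of endocrine and exocrine granules, was 2.76-fold lower in brainstem than in cortex. In hypothalamus it had 20.3 CPM in the library with nasal markers and 8.64 to 14 CPM in the 3 with pituitary markers, against 5.42 to 6.59 CPM in the other 8. Without the 5 hypothalamus libraries that carried other tissue, its log2 fold change in hypothalamus over cortex was -1.19, against -0.72 with them, and the part of that tissue in the result was not tested.

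Per kilobase of exon, so that genes can be set side by side, the order of the release genes differed between tissues. The lengths sum all annotated exons of a gene, and the order within a tissue depends on them. In brainstem Cplx1 led with a median of 634 CPM per kilobase and Snap25 came next (600.0), with Rab3a (243) and Syt11 (206) among the next genes. In hypothalamus Vamp2 led with 237 CPM per kilobase, followed by Rab3a (202) and Snap25 (197), with Syt11 (174) among the next genes. In cortex the order was Snap25 (448), Vamp2 (328), Cplx1 (281), Syt1 (265) and Cplx2 (253). Snap25 was among the highest 3 in all 3 tissues.

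The 6 brainstem libraries with cerebellar markers did not overlap the other 6 in a few release genes, across genotypes. The share of all genes that did not overlap was not counted, so nothing particular to release genes can be read from this. Vamp1 had 1319 to 1396 CPM in these 6 and 1463 to 1554 CPM in the others, Syt2 700.3 to 832 and 864 to 930 CPM, Sv2c 103 to 126 and 134 to 148 CPM, and Syn1 337 to 372 and 394 to 501 CPM. Stxbp6 had 62.1 to 69.2 CPM in these 6 and 69.4 to 83 CPM in the others. Syt9 was higher in the libraries with cerebellar markers (28.4 to 32.6 CPM, against 22.8 to 25.9 CPM). Without all 13 libraries that stood apart, in brainstem over cortex the log2 fold change was 3.01 for Vamp1, 3.19 for Syt2, 1.23 for Cplx1, -4.71 for Stx1a and -2.57 for Syt1.

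Other genes of the release pathway, listed by function, were counted in the same fit, where 43.1% of all genes were called higher and 41.6% lower in brainstem over cortex, 42.7% and 40.3% in hypothalamus over cortex, and 36% and 40.8% in brainstem over hypothalamus. Of 11 active zone genes, 9 were lower and 1 higher in brainstem than in cortex, and 10 were lower and 1 higher in hypothalamus than in cortex, with medians of -1.15 and -1.11 on the log2 scale, beside 0.02 and 0.03 over all tested genes. Examples are the scaffold Bsn (bassoon, -2.08 and -2.72), the Rims-binding protein Rimbp2 (-2.60 and -1.38) and the presynaptic calcium channel Cacna1a (-1.02 and -1.62). Of 13 genes of priming and SNARE disassembly, 6 were higher and 5 lower in brainstem than in cortex, shares near those of all genes. The priming factor Unc13a was lower in brainstem and hypothalamus (-2.19 and -2.25), and Unc13c, known from the cerebellum, was higher (2.77 and 1.10). The brainstem libraries with cerebellar markers were included, and their part in the brainstem value of Unc13c was not tested. Of 12 genes of other vesicle proteins, 2 were higher and 8 lower in brainstem than in cortex, and the vesicular glutamate transporters parted, with Slc17a6 higher in brainstem (3.23) and Slc17a7 lower (-2.98). All 8 genes of vesicle endocytosis were higher in brainstem than in hypothalamus, by a median of 0.46, where the median over all tested genes was -0.04. Slc17a7 is also one of the cortical excitatory markers.

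The genotypes were compared within each tissue, each model with the wild type of its own line. No release gene passed the threshold in any of these comparisons, nor in the difference between the models' effects or between the wild types of the lines, 12 comparisons in all. Of the release genes, 64 were tested in brainstem, 64 in hypothalamus and 63 in cortex. The share of all genes called was 0.00606% (1 gene) for the ataxin-3 transgenic and 0.0728% (12 genes) for the knockout in brainstem, 0.00597% (1 gene) and 0.0119% (2 genes) in hypothalamus, and 0% and 0.0789% (13 genes) in cortex. It was 0.0243% (4 genes) for the difference of the effects in cortex and 0% in the other 5 comparisons. DESeq2 and limma voom called no release gene either.

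At an unadjusted p under 0.05, 4 release genes passed in ataxin-3 transgenic brainstem (6.25% of those tested, against 8.35% of all genes), 1 in knockout brainstem (against 3.24% of all genes), 0 in transgenic and 2 in knockout hypothalamus (against 4.16% and 3.89%), and 2 in transgenic and 0 in knockout cortex (against 5.09% and 3.30%). Between the wild types they were 9 in brainstem, 2 in hypothalamus and 1 in cortex (against 14.9%, 2.29% and 3.26% of all genes), and for the difference of the effects 3, 0 and 0 (against 4.75%, 2.26% and 3.13%).

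**Figure D4:**
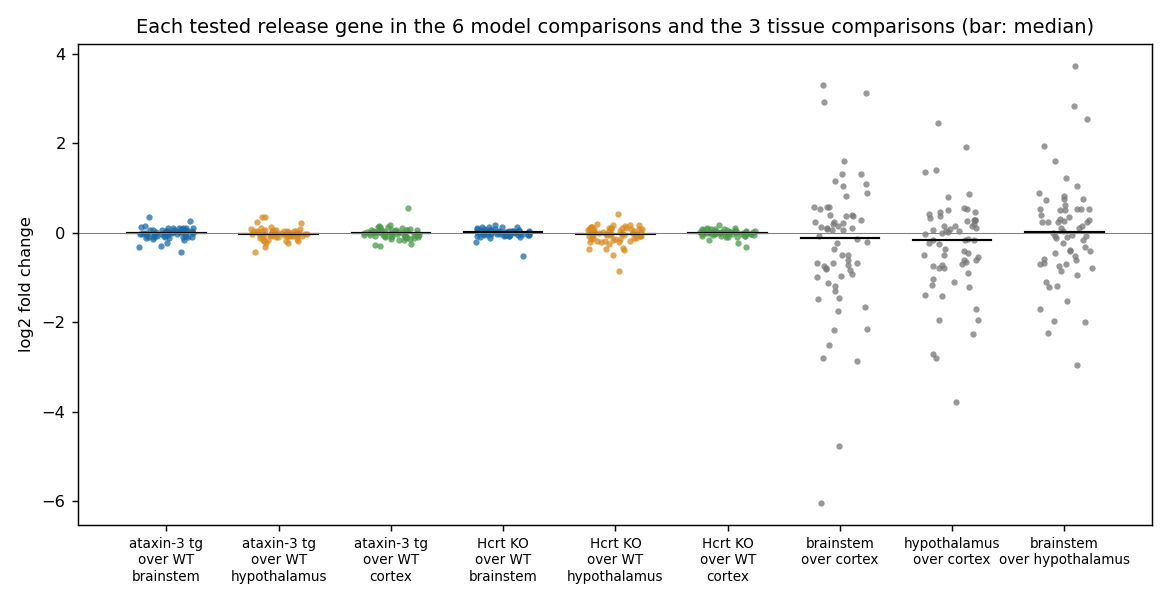
Log2 fold change of every tested release gene (1 point each) in the 6 comparisons of a model with its wild type, coloured by tissue, and in the 3 tissue comparisons in grey, with a bar at the median. The model comparisons lay within -0.86 and 0.55, while the tissue comparisons ran from -6.04 to 3.73.

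The differences between genotypes were small as well as uncalled. The median log2 fold change of the release genes lay between -0.019 and 0.009 in the 6 model comparisons, and within 0.2 of 0 stood 58 of 64 in transgenic and 62 of 64 in knockout brainstem, 56 and 53 of 64 in hypothalamus, and 59 and 61 of 63 in cortex. The median standard error was 0.069 in brainstem, 0.102 in hypothalamus and 0.063 in cortex. Differences of about that size could not be detected with 3 libraries per group, and some several times larger did not pass either. An example is Vamp8 between the brainstem wild types, at a log2 fold change of -0.58. Snap25 averaged 4148 ± 40.5 CPM in transgenic and 4009 ± 167 CPM in wild-type brainstem (SD, n = 3 each). In hypothalamus Snap25 averaged 1284 ± 157 CPM in transgenic and 1357 ± 89.4 CPM in wild-type mice, and 1339 ± 91.3 CPM in knockout and 1336 ± 70.6 CPM in wild-type mice (SD, n = 3 each). The groups overlapped in each pair of these.

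In transgenic brainstem the smallest p belonged to Stx4a, a plasma membrane syntaxin of many cell types. It had 58.7, 54.9 and 55.6 CPM in transgenic libraries, against 47, 38.9 and 53.5 CPM in their wild type, a log2 fold change of 0.27 (SE 0.09, adjusted p = 0.54). The groups did not overlap, and the wild-type values were the spread ones. Vamp8 had 11.9, 13.9 and 12.5 CPM in transgenic libraries, against 10.2, 8.25 and 11.4 CPM in their wild type (0.35, SE 0.12, adjusted p = 0.54). Stx18 (0.15) and Syt14 (-0.31) were also among the 5 with the smallest p, none past the threshold. Exons of Stx4a overlap another gene on the opposite strand, and the strand setting of the counting is not given in the sources used here, so reads in the overlap may be shared. The lowest wild-type value of Stx4a and Vamp8 was in replicate 2, the library with the largest share of reads assigned to no gene (42%), and the part of that in the result was not tested. Without wild-type replicate 3, a library with cerebellar markers, Stx4a (0.40, adjusted p = 0.0105) and Vamp8 (0.47, adjusted p = 0.0486) passed. That fit kept replicate 2 and its low values. Over all fits that left out a single library, 0 to 2 release genes passed in this comparison.

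The same genes led the comparison between the wild types in brainstem. Vamp8 had 10.2, 8.25 and 11.4 CPM in the ataxin-3 line's wild type, against 14.2, 16.4 and 14.1 CPM in the knockout line's, a log2 fold change of -0.58 (SE 0.12, adjusted p = 0.165). Stx4a (-0.29), Syt6 (0.23), Syn1 (0.23) and Snap91 (0.13) followed. Syn1 had 424, 501 and 360.1 CPM in the ataxin-3 line's wild type, against 353, 337 and 395 CPM in the knockout line's, with overlap. Without replicate 3 of the ataxin-3 line's wild type, a library with cerebellar markers, 4 release genes passed (Vamp8, Stx4a, Syt6 and Syn1). That fit also kept replicate 2. Without a filter on low counts 1 passed.

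In knockout brainstem Stx5a had the smallest p, with a log2 fold change of 0.12 (SE 0.06, adjusted p = 0.9999), followed by Cplx2 (0.13), Stxbp2 (0.17), Stx11 (-0.52) and Stx16 (0.07). In transgenic hypothalamus it was Vamp5 (0.36, SE 0.18), followed by Stxbp2 (-0.22), Vamp1 (-0.18), Syt9 (-0.09) and Syt13 (-0.11). Vamp1 had 159, 208 and 229 CPM in transgenic hypothalamus, against 219, 211 and 245 CPM in its wild type, and the lowest value was in the library with nasal markers. Without the hypothalamus libraries that carried other tissue its log2 fold change was 0.04.

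In knockout hypothalamus Syt7 and Sv2b had the smallest p. Syt7 had 78, 112 and 100.3 CPM in knockout libraries, against 143, 102 and 129 CPM in their wild type (log2 fold change -0.37, SE 0.15, adjusted p = 0.81). The groups overlapped. The lowest of these was in the library low in long transcripts, and both higher wild-type values were in libraries with cortical markers. Without all libraries that stood apart the log2 fold change of Syt7 was 0.06. Sv2b had 90.2, 95.7 and 108 CPM in knockout libraries, against 108, 105 and 127 CPM in their wild type (-0.21, SE 0.08). Its lowest value was in the library low in long transcripts, and its highest in a wild-type library with cortical markers. Cplx3 (-0.86), Stx4a (0.20) and Snap47 (0.18) followed. The highest Cplx3 values were in the wild-type libraries with cortical markers. The part of these libraries in the values of Sv2b and Cplx3 was not tested.

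In transgenic cortex Vamp5 had the smallest p, with 1.96, 1.21 and 1.56 CPM in transgenic libraries, against 1.01, 1.19 and 1.06 CPM in their wild type (log2 fold change 0.55, SE 0.20, adjusted p = 0.75). The groups did not overlap, at levels near 1 CPM. The highest value, 1.96 CPM, was in replicate 1, the library low in long transcripts, and Vamp5 has a short exon length (2707 bases). The part of that library in the values of Vamp5 and the next genes was not tested. Syt5 (0.14), Rims4 (-0.10), Rab3b (0.16) and Stxbp5 (-0.12) followed. In knockout cortex the 5 were Vamp1 (-0.10), Syt16 (0.10), Syt9 (-0.22), Syt12 (-0.10) and Stxbp2 (0.08). Between the wild types the smallest p belonged to Syt2 and Vamp1 in hypothalamus (0.39, SE 0.14, and 0.30, SE 0.11), followed by Syn1, Syt13 and Rab3c, and in cortex to Syt6 (-0.47, SE 0.21), followed by Stxbp3, Syt17, Cplx3 and Rims4. The difference of the models' effects was furthest by p for Vamp8 in brainstem (0.46, SE 0.16), followed by Stx5a, Stx4a, Syt14 and Stx18. In hypothalamus these were Vamp1 (-0.32, SE 0.16), Syt13, Stxbp2, Syt6 and Syt4, and in cortex Syt9 (0.34, SE 0.18), Vamp5, Snap23, Stx8 and Rims3.

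Of the release genes on chromosome 11, which holds Hcrt, none lay near it. Stxbp4 was 10.1 Mb away, Vamp2 31.7 Mb, Stx8 32.6 Mb and Snap47 41.3 Mb. In the knockout their log2 fold changes lay between -0.12 (Stxbp4, hypothalamus) and 0.18 (Snap47, hypothalamus), none past the threshold.

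Long release genes were low in both libraries with few long transcripts. These libraries were picked by a correlation with exon length under -0.5, over genes that include release genes. The low values of long release genes thus partly follow from that choice. Over 12629 protein-coding genes, the deviation of a library from its tissue's median had a Spearman correlation with exon length of -0.69 in transgenic cortex replicate 1 and -0.65 in knockout hypothalamus replicate 1, against -0.45 to 0.42 in the other 34; genes of 1 library are not independent replicates. For the 13 release genes over 8 kb the median deviation was -0.23 and -0.32 on the log2 scale in these libraries, and 0.09 in both for the 19 under 4 kb. Sv2c had 5.32, 14.2 and 13.3 CPM in transgenic cortex, against 13.8, 13.8 and 11.9 CPM in its wild type, and 10, 42.4 and 34.5 CPM in knockout hypothalamus, against 35.7, 39.4 and 28.7 CPM in its wild type. Replicate 1 was the low value in both. The log2 fold change of Sv2c was -0.28 in transgenic cortex with all libraries and 0.07 without replicate 1, and -0.25 in knockout hypothalamus with all libraries and 0.14 without replicate 1. Syn3 (-0.29 and -0.04) and Syt10 (-0.25 and 0.12) moved likewise in transgenic cortex, and Syt10 is a short gene by its annotated exons (1845 bases). None of these passed the threshold with or without the library, and the part of transcript length in them was not tested.

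**Figure D5:**
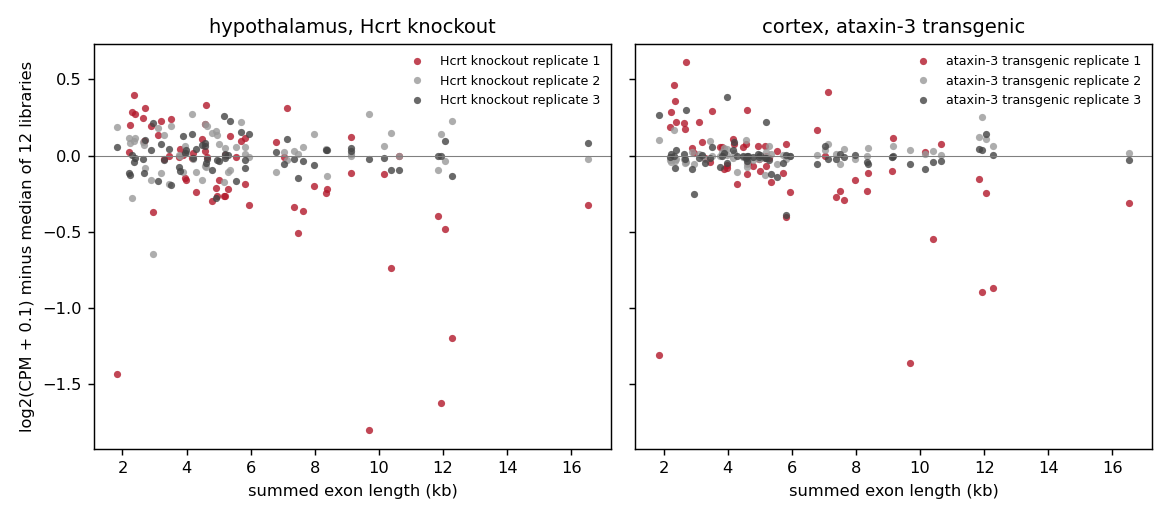
Deviation of each release gene from the median of the 12 libraries of its tissue, on a log2(CPM + 0.1) scale, against its summed exon length in kilobases, for the 3 knockout hypothalamus libraries (left) and the 3 transgenic cortex libraries (right). Replicate 1, in red, falls below 0 for most genes over 8 kb, with a median of -0.32 in hypothalamus and -0.23 in cortex, and replicates 2 and 3 scatter about 0.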

How the data were processed

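Poly(A) RNA of 36 libraries was measured with a stranded kit. For each library the authors deposited raw counts by Ensembl gene. The submitters' processing notes name cutadapt 1.2.1, TopHat2 2.0.9, HTSeq 0.5.4p3 and GRCm38. Not given in the sources used here were strand setting, overlap mode and annotation release. Special lines for unassigned reads (24.7% to 42% of a library) were left out. Symbols, positions and exon lengths came from GENCODE M21, which names 37607 of 38924 identifiers. No 2 replicates agreed within sampling noise (chi-square per degree of freedom at least 2.46). The largest value, 344.7, was between replicates 2 and 3 of brainstem in the ataxin-3 line's wild type.

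The main test was edgeR 4.0.16 quasi-likelihood (R 4.3.3; robust, TMM factors, default filter by group) on the counts, with Benjamini-Hochberg adjustment over all tested genes and a threshold of 0.05. Tissues were compared in 1 fit of 36 libraries (17744 genes) and genotypes in 1 fit of 12 libraries per tissue (16493 genes in brainstem, 16738 in hypothalamus, 16479 in cortex). SE was taken as log2 fold change (absolute) divided by root F. The steps were checked on simulated counts. The biological coefficient of variation was 9.03% in brainstem, 18% in hypothalamus and 7.35% in cortex. Counting error is small beside this for abundant genes such as Snap25, but not for genes with few counts. Examples are Vamp5 (31 to 119 counts in a library), Syt15 (16 to 52) and Stx11 (2 to 25). Without molecular identifiers, PCR copies are counted too.

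Alternatives were DESeq2 1.42.0, limma 3.58.1 voom, other scaling and filters, wild types only, a replicate block and leaving out each library. The replicate block was the replicate number in the genotype fits, and the line with the library's title number in the tissue fit. Leaving out libraries that stood apart, and the 2-fold limit, were chosen after the data were seen. Release genes, lists and naming rule were chosen with earlier results of these data known. Named were a core set, up to 10 called genes with the largest change per direction in each tissue comparison, and the 5 with the smallest p in each genotype comparison. Counts over the release genes include 2 whose own values are not reported here.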

Additional observations from a re-analysis of the deposited data

How the results depend on the processing

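Over 11 alternatives other than leaving out single libraries, the calls in brainstem over cortex numbered 27 to 29 higher and 31 to 32 lower, in hypothalamus over cortex 21 to 25 and 32 to 34, and in brainstem over hypothalamus 26 to 31 and 27 to 29. Leaving out each of 36 libraries gave 28 to 29 and 32, 21 to 25 and 32 to 33, and 30 to 31 and 29 to 30. Of the called release genes, 58 of 61, 52 of 55 and 51 of 60 passed in the same direction in every alternative and leave-one-out fit run. Among those lost in some were Rab3c and Syt4, then Stxbp4, Syt3 and Syn3, then Snap47, Stx5a, Snap29, Stx6, Snap23, Rims4, Syn1, Stxbp6 and Vamp8. The least stable of these were Syn3, which kept its call in 12 of 47 fits, and Syt4 and Rims4, with 31 of 47 each. In the genotype comparisons the count was 0 throughout, except 1 between the brainstem wild types with no filter on low counts, and 0 to 2 in transgenic brainstem and 0 to 4 between the brainstem wild types when single libraries were left out. In the tissue comparisons 10 release genes turned sign in some fit, none past the threshold there, and only Rims4 in brainstem over hypothalamus was called with all libraries (-0.0056 without all that stood apart). The others were Rab3a in hypothalamus over cortex (0.049 without the hypothalamus libraries with carry-over, 0.055 without all that stood apart, -0.0382 to 0.0073 on leaving out single libraries), Sv2a in brainstem over hypothalamus (0.0015 without the cerebellar libraries), Rims2 (0.00036 to 0.046) and Stx11 (0.071 to 0.27) there, Syt10 (0.0026 to 0.033) and Syt12 (-0.025 to -0.023) in brainstem over cortex, and Snap29 (-0.016 to -0.0035), Stx17 (0.0014 to 0.032) and Stx4a (-0.0084) in hypothalamus over cortex. Of the genes named in the genotype comparisons, those that turned were Stx5a and Stxbp2 in knockout brainstem (-0.005 and -0.023 without the cerebellar libraries and without all that stood apart), Vamp1 in transgenic hypothalamus (0.044 without carry-over, 0.043 without all) and in the difference of effects there (0.031), and Syt7 and Snap47 in knockout hypothalamus (0.058 and -0.0007 without all). The cause was not tested. Among wild types only, Syn1 in brainstem over hypothalamus (0.11) did not pass. Replicate numbers did not clearly pair the libraries. Deviations were correlated over 0.1 in 7 of 27 pairs within a tissue (at most 0.4) and in 0 of 36 across tissues. Pairs with unlike numbers were not compared, so these values cannot decide whether libraries shared an animal. With a replicate block the counts were 29 and 32, 22 and 33, 31 and 29, and 0 in each genotype comparison. Depth limits genes near or under 1 CPM, such as Stx11, Syt15 and Cplx3 outside cortex.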
